A study of Arabidopsis thaliana with 9 samples.

Results

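The genes described here are 10 loci of Arabidopsis thaliana that serve alternative respiration in mitochondria or report stress in them, measured in leaves under silver nanoparticles and silver ions. They were taken by locus identifier, in a set drawn up with earlier results of these data known, and all 10 were found among the 38202 rows of the count table. They are the alternative oxidase genes AOX1A (AT3G22370), AOX1C (AT3G27620) and AOX1D (AT1G32350), the NAD(P)H dehydrogenase genes NDA1 (AT1G07180), NDA2 (AT2G29990) and NDB2 (AT4G05020), the stress-responsive genes UPOX (AT2G21640) and OM66 (AT3G50930), and the transcription factor genes NAC013 (AT1G32870) and NAC017 (AT1G34190). RNA sequencing of 9 libraries gave 3 groups of 3, named by the agent in the labels: AgNPs for silver nanoparticles, Ag+ for silver ions, and CK, taken as the group without silver. All groups were of the ecotype Columbia and had 6 days in MS medium, while the silver dose and the length of exposure are not stated in the labels. The RNA is called pooled, and separate cultures or plants behind the libraries are not mentioned, so the p-values reflect no more than the spread between these libraries, which may be technical.

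Plant mitochondria carry a second route for electrons beside the cytochrome pathway. Type II NAD(P)H dehydrogenases pass electrons to ubiquinone and alternative oxidase passes them on to oxygen, and neither step pumps protons. When respiration is disturbed, a signal from the mitochondrion changes transcription in the nucleus: NAC017 and NAC013 are held in the endoplasmic reticulum membrane, are released by cleavage, and act on genes such as AOX1A through a promoter element known as the mitochondrial dysfunction motif.

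This motif was searched for as CTTG, then 5 bases of any kind, then CAAG or CACG, on both strands, from 250 bases before to 50 after each annotated gene start in the RefSeq assembly TAIR10.1. The CAAG form reads the same on either strand, and no stretch can match both forms at once. Of the 10 genes, 5 held at least 1 match, against 1.42% of the 27443 promoters searched (0.904% for the CAAG form and 0.536% for the CACG form). The motif is known from genes of this pathway such as AOX1A, and the set was chosen for that pathway. Matches among its genes are therefore a description, not a test of enrichment. The matches are shown because the 3 genes of the set that passed the test as higher in AgNPs against CK were among those that held one. AOX1D and NAC013 lay above CK in every AgNPs library without passing that test, and held none. NDB4, a gene outside the set that passed it as higher, held none either. Each is read along its own gene, which lies on the plus strand in every case, with the match in capitals and 8 bases to either side.
AOX1A, chr3:7906510-7906538: atctagctCTTGGCGACCACGcaagtatc
AOX1A, chr3:7906537-7906565: tcttccatCTTGCTCTCCAAGaaaaatct
NDB2, chr4:2572340-2572368: cgatctggCTTGGCCACCAAGattgtttg
UPOX, chr2:9254319-9254347: tttagtaaCTTGCTCTCCAAGgagatcta
NDA1, chr1:2204026-2204054: tgtcgtttCTTGCGCATCAAGttctgctg
NAC017, chr1:12451287-12451315: acctctgtCGTGTCAGACAAGaatgttgg
The capitals of the pair in AOX1A began 3 bases before and 24 bases after the gene start, so the second lay in the annotated transcript. In NDB2, UPOX, NDA1 and NAC017 they began 79, 51, 70 and 110 bases before it. NAC017 held the CACG form on the strand opposite to the gene. AOX1C, AOX1D, NDA2, NAC013 and OM66 held no such letters in this window, from which nothing follows about the factors that bind there.

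The libraries held 16884010 to 19876151 counts each, and levels are given in CPM, counts relative to the library total after scaling by TMM factors. All 8 leaf markers, among them the small subunit gene RBCS1A of Rubisco, were detected in every library, with sums of 28347 to 40739 CPM under AgNPs, 39973 to 48421 under Ag+ and 25946 to 37794 in CK. In whole leaves, fewer cells of a type and less RNA per cell cannot be told apart. A heat shock list of 9 genes summed to 306, 1108 and 1460 CPM in AgNPs 1 to 3, with 90.4, 62.8 and 285 CPM in Ag+ 1 to 3 and 122, 120 and 1006 CPM in CK 1 to 3, so CK 3 stood apart from its group. Root markers other than PYK10 summed to 78.5, 18.8 and 16.4 CPM in AgNPs 1 to 3, against 13.3 to 25.4 CPM under Ag+ and 14.1 to 26.5 CPM in CK, so AgNPs 1 stood apart as well. PYK10, an abundant beta-glucosidase, had 2248 to 3197 CPM under AgNPs, 2124 to 2748 CPM under Ag+ and 1843 to 2017 CPM in CK.

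AOX1A, the main alternative oxidase gene of leaves, was higher under AgNPs than in either other group. Its level was 101.7, 101.6 and 101.7 CPM in the AgNPs libraries, 63.1, 57.9 and 51.1 CPM in the Ag+ libraries, and 65.4, 65.7 and 56.2 CPM in the CK libraries. Every AgNPs library lay above every other library, and the Ag+ and CK values overlapped. The AgNPs values lie closer together than the counting error of each, so their spread understates the error. AOX1A rose 1.63-fold in AgNPs against CK (log2 0.70, SE 0.12, adjusted p = 0.0114, edgeR's quasi-likelihood test adjusted over all 19889 genes tested) and 1.77-fold in AgNPs against Ag+ (log2 0.83, SE 0.12, adjusted p = 0.0348). Neither call held in every fit without 1 library: the call against CK was lost without AgNPs 2 (adjusted p = 0.0568) or AgNPs 3 (0.0513), and the call against Ag+ without Ag+ 1 (0.0764), Ag+ 2 (0.115), Ag+ 3 (0.135), AgNPs 2 (0.161) or AgNPs 3 (0.110), while the log2 fold changes stayed within 0.64 to 0.75 and within 0.75 to 0.90. In Ag+ against CK the log2 fold change was -0.12 (adjusted p = 0.647).

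The remaining alternative oxidase genes were measured at few counts. AOX1D, an isoform of the same enzyme family, had 24, 20 and 13 counts in the AgNPs libraries, 8, 1 and 5 in the Ag+ libraries, and 8, 1 and 5 in the CK libraries. The AgNPs counts lay above all others, but neither difference passed the test, at log2 2.09 against CK (SE 0.72, adjusted p = 0.168) and log2 1.86 against Ag+ (SE 0.72, adjusted p = 0.268). AOX1C, whose expression is annotated as not induced by antimycin A, an inhibitor of complex III, had 9, 28 and 10 counts under AgNPs, 12, 16 and 14 under Ag+ and 6, 5 and 12 in CK. Once scaled, the Ag+ libraries lay above the CK libraries (0.78 to 0.89 CPM under Ag+, against 0.28 to 0.61 CPM in CK), but the log2 fold change of 1.04 did not pass the test (adjusted p = 0.325), nor did the same value in AgNPs against CK (adjusted p = 0.357). AOX1B and AOX2, the other alternative oxidase genes of this species, had 2 counts each under AgNPs and none in CK, and were too low to be tested. Under Ag+ AOX1B had 1, 1 and 6 counts (8 in all) and AOX2 had 0, 4 and 3 counts (7 in all). Set against 3 counts over the CK group, the scaled Ag+ totals were 3.03-fold for AOX1B and 2.65-fold for AOX2. These ratios do not cover the counting error of the Ag+ totals. AOX1A made up 97.7% to 98.7% of the counts of these 5 genes under AgNPs, 96.9% to 97.9% under Ag+ and 98.5% to 99.5% in CK.

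Of the dehydrogenases, NDB2 changed with AgNPs and the matrix-side NDA1 and NDA2 did not pass the edgeR test. NDB2, an enzyme on the outer face of the inner membrane that oxidises cytosolic NADH, had 9.41, 9.01 and 8.74 CPM in the AgNPs libraries, 5.09, 4.06 and 4.10 CPM in the Ag+ libraries, and 2.23, 2.22 and 5.17 CPM in the CK libraries. AgNPs lay above both other groups, and CK 3 lay above all Ag+ libraries. NDB2 rose 2.81-fold in AgNPs against CK (log2 1.49, SE 0.31, adjusted p = 0.0310). That call was lost without CK 1 (adjusted p = 0.0731), CK 2 (0.113), Ag+ 2 (0.0573), AgNPs 2 (0.103) or AgNPs 3 (0.0853), and in a fit of the 6 libraries alone (0.0922). Without CK 3 the log2 fold change was 2.03, and NDB2 then also passed the test in Ag+ against CK (log2 0.96, adjusted p = 0.0249) and in AgNPs against Ag+ (log2 1.07, adjusted p = 0.0239). With all libraries those log2 fold changes were 0.46 (adjusted p = 0.488) and 1.04 (adjusted p = 0.158).

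NDA2, which oxidises NADH in the matrix, had 9.16, 10.3 and 12.3 CPM under AgNPs, 7.24, 6.72 and 6.39 CPM under Ag+, and 9.23, 9.67 and 8.44 CPM in CK. The Ag+ libraries were the lowest of the 9, while AgNPs and CK overlapped. Its log2 fold change was -0.43 in Ag+ against CK (SE 0.16, adjusted p = 0.171) and 0.64 in AgNPs against Ag+ (SE 0.16, adjusted p = 0.102), neither past the test, and 0.22 in AgNPs against CK (adjusted p = 0.545). NDA1, its close relative known for its regulation by light, spread widely within groups, at 16.2, 8.86 and 8.69 CPM under AgNPs, 14.9, 10.7 and 5.74 CPM under Ag+ and 6.45, 8.93 and 4.65 CPM in CK, and all 3 groups overlapped. The log2 fold change of NDA1 in AgNPs against CK was 0.75 (SE 0.39, adjusted p = 0.381), and 0.40 without AgNPs 1. For NDA1 it was 0.65 in Ag+ against CK (adjusted p = 0.427) and 0.10 in AgNPs against Ag+ (adjusted p = 0.923).

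UPOX, a mitochondrial protein of unknown function used as a marker of oxidative stress, rose in AgNPs against CK. It had 8.98, 11.6 and 9.80 CPM in the AgNPs libraries, 4.31, 6.22 and 3.93 CPM in the Ag+ libraries, and 2.68, 1.20 and 2.61 CPM in the CK libraries. The 3 groups were fully separated, with AgNPs above Ag+ and Ag+ above CK. UPOX rose 4.65-fold in AgNPs against CK (log2 2.22, SE 0.30, adjusted p = 0.00525), and this call held in all 9 fits that left out 1 library. In Ag+ against CK the 2.22-fold difference missed the threshold (log2 1.15, SE 0.31, adjusted p = 0.0602, against 0.00984 by DESeq2), and so did that of AgNPs against Ag+ (log2 1.07, SE 0.29, adjusted p = 0.132, against 0.0167 by DESeq2).

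OM66, an ATPase of the outer mitochondrial membrane with a role in cell death and salicylic acid signalling, had 54.9, 33.8 and 35.8 CPM under AgNPs, 17.2, 14.0 and 16.9 CPM under Ag+, and 36.3, 9.90 and 24.7 CPM in CK. AgNPs lay above Ag+ in every library, but the CK libraries spanned from below the lowest Ag+ value to above the lowest AgNPs value. The log2 fold change in AgNPs against Ag+ was 1.37 (SE 0.40, adjusted p = 0.165); it passed without CK 2 (log2 1.40, adjusted p = 0.0374), a library of neither group compared. In AgNPs against CK it was 0.81 (SE 0.39, adjusted p = 0.343), and in Ag+ against CK -0.56 (SE 0.40, adjusted p = 0.509).

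**Figure D1:**
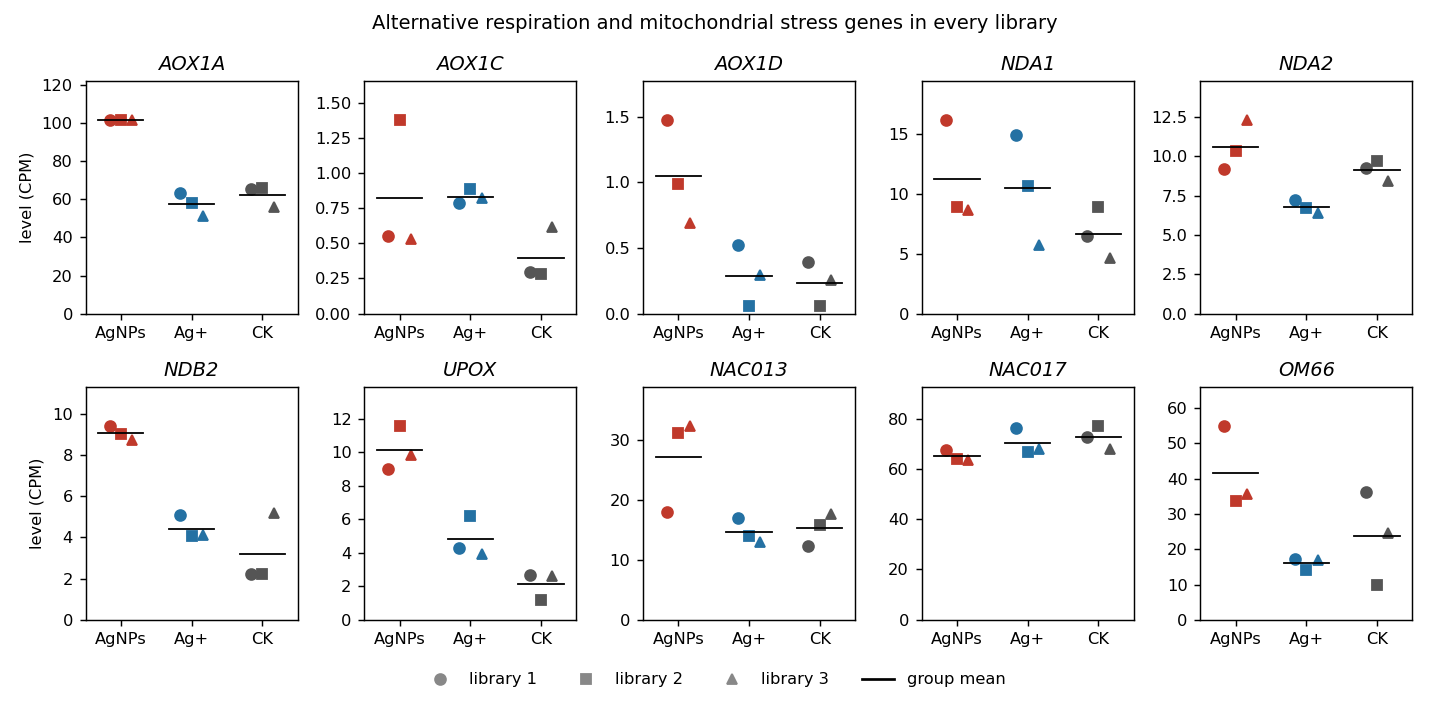
Level of each of the 10 genes in CPM (linear axes from 0, 1 scale per panel) in the AgNPs, Ag+ and CK libraries; symbols mark library 1, 2 and 3 and lines mark group means. AOX1A, NDB2 and UPOX are higher in all AgNPs libraries than in all others, whereas NAC017 differs little, from 63.5 to 67.6 CPM under AgNPs, from 66.8 to 76.2 CPM under Ag+ and from 67.7 to 77.1 CPM in CK.

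The transcription factor genes differed from each other. NAC013, which binds the mitochondrial dysfunction motif and is itself a target of the pathway, had 18.1, 31.1 and 32.4 CPM in the AgNPs libraries, 17.0, 13.9 and 13.0 CPM in the Ag+ libraries, and 12.4, 15.9 and 17.7 CPM in the CK libraries. The lowest AgNPs library, AgNPs 1, lay just above the highest CK library. NAC013 did not pass the test in AgNPs against CK (log2 0.83, SE 0.23, adjusted p = 0.0896) or in AgNPs against Ag+ (log2 0.90, SE 0.23, adjusted p = 0.116). In Ag+ against CK its log2 fold change was -0.07 (adjusted p = 0.916). Without AgNPs 1 NAC013 passed in both comparisons with AgNPs (log2 1.05, adjusted p = 0.0156, and log2 1.12, adjusted p = 0.0170).

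NAC017, the upstream regulator that is activated by cleavage of its protein, differed little between the groups. Its level was 67.6, 63.9 and 63.5 CPM under AgNPs, 76.2, 66.8 and 67.9 CPM under Ag+, and 72.6, 77.1 and 67.7 CPM in CK. AgNPs lay just below CK in every library, at log2 -0.16 (SE 0.10, adjusted p = 0.510), and the other pairs of groups overlapped, with -0.04 in Ag+ against CK and -0.11 in AgNPs against Ag+. The end of NAC013 overlaps its antisense neighbour AT1G32880 by a few bases and whether counting used strand is not stated in the sources used here. Overlap of the other 9 genes with annotated genes is not reported here.

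Levels of different genes were compared per kilobase of the longest annotated transcript. AOX1A stood first in all 3 groups, with 57.6 CPM per kilobase under AgNPs, 32.5 under Ag+ and 35.4 in CK, followed by NAC017 with 24.7, 26.8 and 27.6 in the same order of groups. AOX1C and AOX1D stood last, at 0.610 and 0.732 CPM per kilobase under AgNPs, 0.617 and 0.202 under Ag+, and 0.296 and 0.165 in CK. UPOX moved most in this order, and under both silver forms. Under AgNPs its mean of 13.8 ± 1.80 CPM per kilobase (SD, n = 3) lay within the spread of NAC013 (14.2 ± 4.13) and OM66 (15.6 ± 4.40). Under Ag+ its 6.56 ± 1.67 lay above OM66 (6.03 ± 0.659) and below NAC013 (7.62 ± 1.09). In CK its 2.94 ± 1.14 lay within the spread of NDA1 (3.08 ± 0.991) and below OM66 (8.90 ± 4.99) and NAC013 (7.99 ± 1.43).

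Counted over the 10 genes, all of which were tested, AgNPs against CK gave 3 higher (AOX1A, NDB2 and UPOX), none lower and 7 not past the test. Of all genes tested in that comparison, 3.32% were called, 2.23% as higher and 1.09% as lower. At an unadjusted p under 0.05 stood 5 of the 10, against 17% of all genes. All AgNPs libraries lay above all CK libraries for 5 genes and below them for 1, against 11.4% and 11.1% of all genes. The median log2 fold change was 0.82 over the 10 genes and -0.003 over all genes tested. The count was 1 without AgNPs 2 or AgNPs 3, UPOX being the gene called in each case, and 4 without AgNPs 1, with NAC013 added. DESeq2 called 4, NAC013 being the addition, and limma voom called 3.

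In Ag+ against CK none of the 10 genes was called by edgeR, against 5.57% of all genes tested (3.52% as higher and 2.05% as lower), and 2 of them, UPOX and NDA2, had an unadjusted p under 0.05, against 19.2% of all. DESeq2 called 1, UPOX, and limma voom none. Ag+ lay above CK in every library for AOX1C and UPOX and below it for NDA2, against 12.7% and 10.7% of all genes. The median log2 fold change was 0.09, against -0.009 over all genes. Without CK 3 the count was 1, NDB2.

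AgNPs against Ag+ gave 1 higher, AOX1A, and none lower, where 0.684% of all genes were called, 0.508% as higher and 0.176% as lower. AgNPs lay above Ag+ in every library for 7 of the 10 (AOX1A, AOX1D, NDA2, NDB2, UPOX, NAC013 and OM66), against 10.4% of all genes, and for none below. The same 7 genes had an unadjusted p under 0.05, against 14.8% of all genes. The median log2 fold change was 0.86, against -0.01 over all genes. DESeq2 called 6 of the 10: AOX1A, NDA2, NDB2, UPOX, NAC013 and OM66. AgNPs against CK and AgNPs against Ag+ share the AgNPs libraries, and both comparisons with CK share the CK libraries, so their values are not independent.

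**Figure D2:**
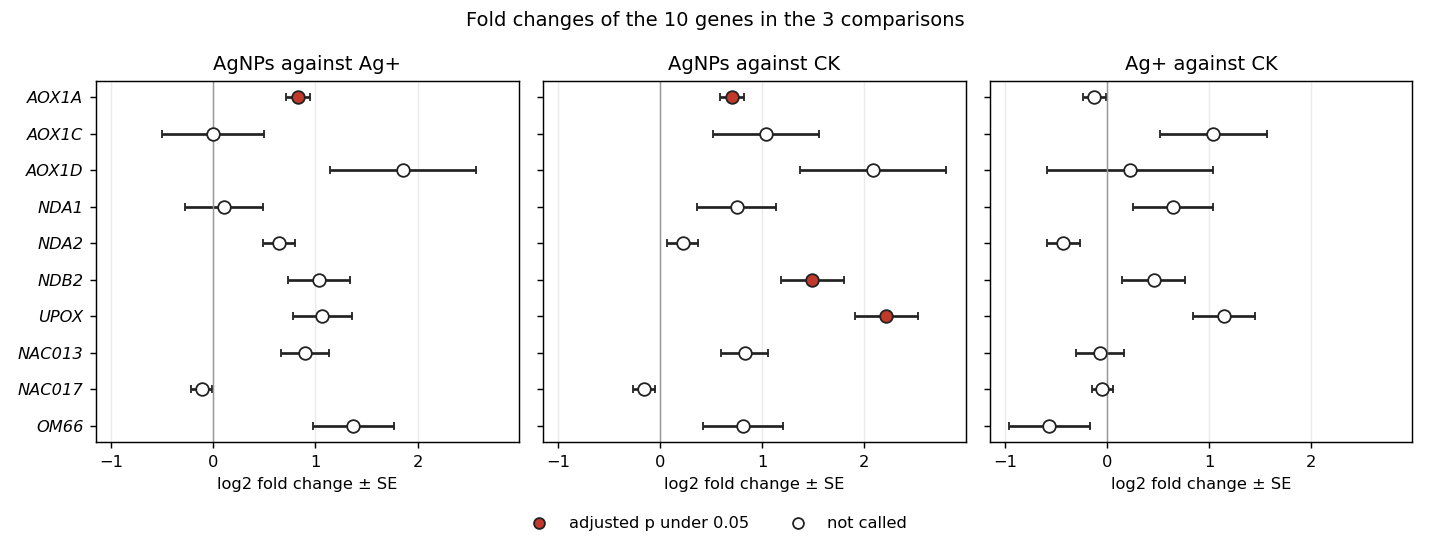
Log2 fold change with its standard error for the 10 genes in AgNPs against Ag+, AgNPs against CK and Ag+ against CK; filled symbols had an adjusted p under 0.05. UPOX is farthest right among the called genes, at 2.22 in AgNPs against CK, and no symbol is filled in Ag+ against CK.

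Heat shock transcripts were higher in each AgNPs library than in each Ag+ library, while CK 3 lay above AgNPs 1, and the root sum was high in AgNPs 1 alone. All 8 tested heat shock genes had positive log2 fold changes in AgNPs against CK (median 1.57) and in AgNPs against Ag+ (median 3.01). None was called by edgeR, with 3 and 8 of them at an unadjusted p under 0.05, while DESeq2 called 0 and 3. All 11 tested root markers were positive in both comparisons (medians 1.17 and 1.47), none was called by edgeR or DESeq2, and 2 and 3 had an unadjusted p under 0.05. Of all genes tested, 17% in AgNPs against CK and 14.8% in AgNPs against Ag+ had an unadjusted p under 0.05. In limma voom no gene of either list was called. HSP21 was at 0 in CK 2, Ag+ 2 and Ag+ 3 and HSP22 in CK 2 and Ag+ 3, while IRT1, a root iron transporter, was at 0 in all libraries but AgNPs 1 and AgNPs 2. AOX1A was as high in AgNPs 1, with a heat shock sum of 306 CPM, as in AgNPs 3, with 1460 CPM, and in CK 3, with 1006 CPM, it was the lowest of its group. Within AgNPs, NAC013 was high in the libraries with the most heat shock transcripts. In CK 3 it was the highest of its group, at 17.7 CPM. In Ag+ 3, which had the largest heat shock sum of its group at 285 CPM, it was the lowest, at 13.0 CPM. Whether any of these genes followed heat shock was not tested. The fits below that hold the heat shock sum as a term test the differences between groups only. The heat shock sum went with the group in AgNPs and Ag+, so a fit with that sum cannot fully tell them apart. With the heat shock sum of each library as a term in the fit, the log2 fold changes in AgNPs against CK were 0.81 for AOX1A (adjusted p = 0.00405), 1.26 for NDB2 (0.0316), 2.16 for UPOX (0.00770) and 0.59 for NAC013 (0.198), and NDA1 passed the test at 1.31 (0.0240). In AgNPs against Ag+, where the heat shock list differed most, that term gave 1.00 for AOX1A (adjusted p = 0.0186), 0.52 for NDB2 (0.501, against 1.04 without the term), 0.96 for UPOX (0.292) and 0.49 for NAC013 (0.445, against 0.90 without the term). Without CK 3 and AgNPs 1, which stand apart, the log2 fold changes in AgNPs against CK were 0.63 for AOX1A (adjusted p = 0.0209), 1.99 for NDB2 (0.00126), 2.44 for UPOX (0.00429) and 1.17 for NAC013 (0.00507), all 4 past the test.

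**Figure D3:**
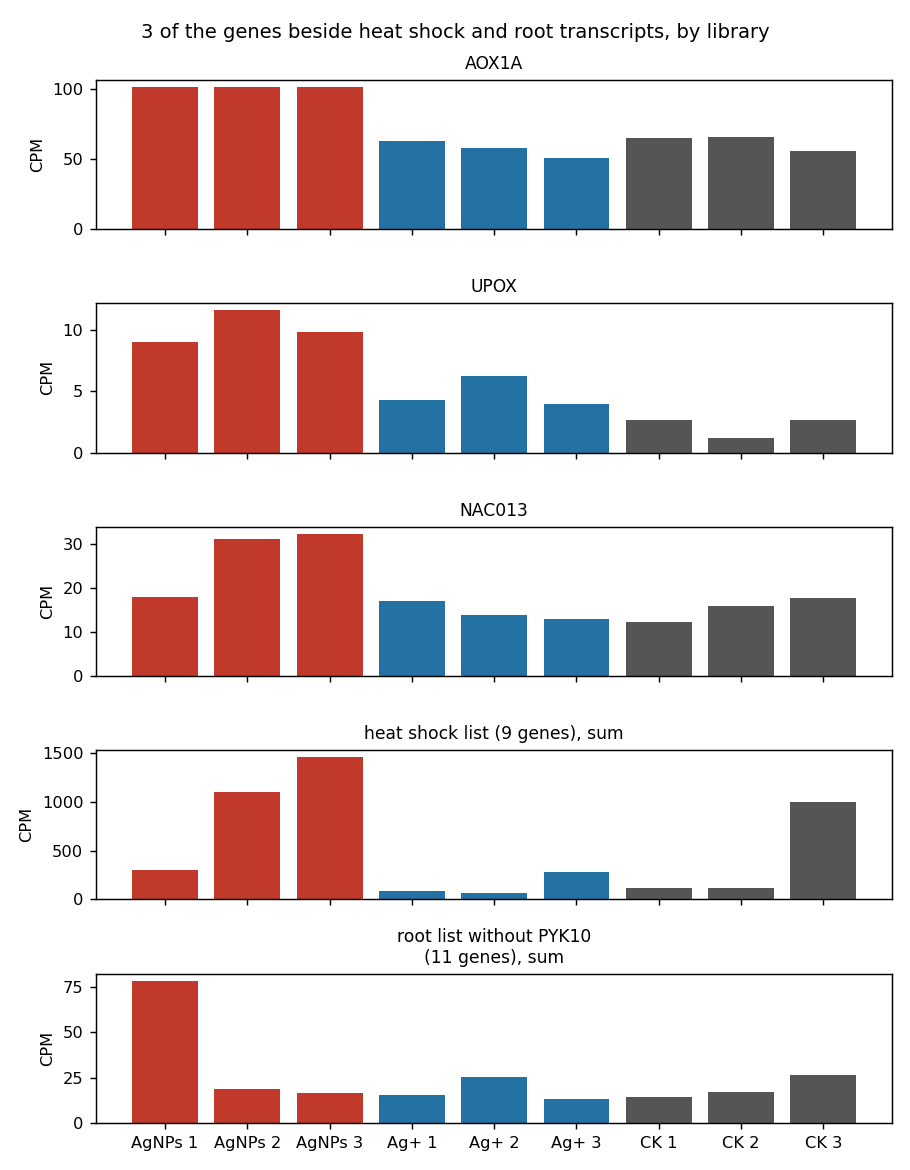
Levels of AOX1A, UPOX and NAC013 and the summed levels of 9 heat shock genes and of 11 root markers without PYK10, in CPM on linear axes from 0, with 1 bar for each library of AgNPs, Ag+ and CK. AOX1A and UPOX are high in all AgNPs bars, the heat shock sum is high in AgNPs 2, AgNPs 3 and CK 3, and the root sum of 78.5 CPM in AgNPs 1 is the highest.

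Among the other genes of alternative electron transport, NDB4 followed the pattern of UPOX. NDB4, an external dehydrogenase related to NDB2, had 2.89, 2.61 and 2.61 CPM in the AgNPs libraries, 0.98, 0.72 and 1.52 CPM in the Ag+ libraries, and 0.15, 0.34 and 0.41 CPM in the CK libraries, with the groups fully separated. It rose 8.88-fold in AgNPs against CK (log2 3.15, SE 0.44, adjusted p = 0.00563) and 3.54-fold in Ag+ against CK (log2 1.83, SE 0.45, adjusted p = 0.0457). The call in Ag+ against CK was lost with a replicate block (adjusted p = 0.0625), with the block on the 6 libraries alone (0.0822) and in 8 of the 9 fits that left out 1 library, the exception being the one without CK 3 (0.0469). NDB3, another external dehydrogenase gene, was too low to be tested, with 24 counts under AgNPs, 3 under Ag+ and 2 in CK. The ratio of these NDB3 totals, scaled by library size, was 12.4 in AgNPs against CK (exact 95% interval 3.08 to 108, covering counting error only).

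The rest of that list did not pass the edgeR test. NDB1, the calcium-dependent external NADPH dehydrogenase, had log2 fold changes of -0.16 in AgNPs against CK and 0.04 in Ag+ against CK. NDC1, found in both mitochondria and chloroplasts, had -0.43 (adjusted p = 0.164) and -0.25 (adjusted p = 0.411) in the same comparisons, with all CK libraries above all silver libraries. PUMP1, an uncoupling protein gene, had 84.5 to 88.8 CPM under AgNPs, 85.7 to 99.998 CPM under Ag+ and 71.4 to 74.1 CPM in CK, so that all silver libraries lay above all CK libraries. Its log2 fold change was 0.27 in AgNPs against CK (adjusted p = 0.207) and 0.33 in Ag+ against CK (adjusted p = 0.0974, against 0.0353 by DESeq2, which called it). UCP2, its relative, had -0.34 and -0.21 in the same comparisons, and PTOX, the chloroplast relative of alternative oxidase, had 0.02 and -0.03. Over the 6 tested genes of the 9, the median log2 fold change was -0.07 in AgNPs against CK, 0.003 in Ag+ against CK and -0.10 in AgNPs against Ag+.

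A list of 16 further genes that respond to mitochondrial dysfunction, all tested, gave 2 higher and none lower by edgeR in AgNPs against CK. Of all genes tested there, 2.23% were called higher and 1.09% lower. The median log2 fold change of the list was 0.63. DESeq2 called 5 of the 16, DTX1 among them as lower. Without CK 3 the count was 5, and without CK 1, CK 2, Ag+ 2, AgNPs 2 or AgNPs 3 it was 1, each time AT12CYS-2. AT12CYS-2, a small twin-cysteine protein of mitochondria, had 6.52, 7.48 and 6.61 CPM in the AgNPs libraries, 5.09, 4.17 and 4.40 CPM in the Ag+ libraries, and 0.35, 0.51 and 1.64 CPM in the CK libraries, with no overlap between any of the groups. AT12CYS-2 rose 8.17-fold in AgNPs against CK (log2 3.03, SE 0.44, adjusted p = 0.00646) and 5.41-fold in Ag+ against CK (log2 2.44, SE 0.44, adjusted p = 0.0129, and just over the threshold without CK 2, at 0.0515, or Ag+ 1, at 0.0503). AT2G41730, a gene of unknown function, had 13.3, 18.2 and 18.4 CPM under AgNPs, 7.31, 7.17 and 5.57 CPM under Ag+, and 6.85, 5.80 and 9.97 CPM in CK. The AgNPs libraries lay above all others, with log2 fold changes of 1.14 against CK (SE 0.23, adjusted p = 0.0273) and 1.31 against Ag+ (SE 0.23, adjusted p = 0.0438), and the heat shock sum as a term in the fit gave 0.92 against CK (0.0421) and 0.91 against Ag+ (0.136). Its call against CK was lost without CK 1 (0.0725), CK 2 (0.101), Ag+ 2 (0.0505), AgNPs 2 (0.111) or AgNPs 3 (0.102), and its call against Ag+ without any 1 Ag+ library (0.112 to 0.164), AgNPs 2 (0.196) or AgNPs 3 (0.169).

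In Ag+ against CK edgeR called 3.52% of all genes tested as higher and 2.05% as lower. There the same list gave AT12CYS-2 higher and DTX1 lower by edgeR, with 4 called by DESeq2, and its median log2 fold change was -0.73. Without CK 3 the count was 4, without CK 2 it was 0, and without CK 1, AgNPs 2 or any 1 of the Ag+ libraries it was 1. DTX1, a transporter of the MATE family, had 24.97, 23.4 and 22.5 CPM under AgNPs, 26.2, 13.7 and 18.9 CPM under Ag+ and 42.1, 41.4 and 31.8 CPM in CK, so both silver groups lay below CK. It fell by 0.97 on the log2 scale in Ag+ against CK (SE 0.22, adjusted p = 0.0296); without CK 1, CK 2, Ag+ 2, Ag+ 3 or AgNPs 2 the adjusted p was 0.0532 to 0.0920. In this pair of groups same-numbered libraries deviated together weakly, and with the numbers as a block on the 6 libraries 5 of the 16 genes were called. In AgNPs against Ag+ all 16 genes had a positive log2 fold change, with a median of 0.99. For 12 of them AgNPs lay above Ag+ in every library, against 10.4% of all genes tested. AT2G41730 was the only one edgeR called, where 0.684% of all genes were called. DESeq2 called 6 of the 16, and edgeR called 3 without CK 3 and 2 without AgNPs 1. HSP23.5 and HSP23.6, mitochondrial small heat shock proteins in that list, had 31.5, 112 and 142 CPM and 2.34, 9.01 and 14.6 CPM in AgNPs 1 to 3, which is the order of the heat shock sums, and their part in the list's median was not tested.

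By edgeR, 1 regulator and no cytochrome pathway gene were called. Of 12 regulators of signalling from mitochondria to the nucleus, 11 were tested, and WRKY63 was higher in Ag+ against CK (log2 2.23, SE 0.52, adjusted p = 0.0359), with 2.22, 1.28 and 1.00 CPM in the Ag+ libraries against 0.30, 0.17 and 0.46 CPM in the CK libraries. Its AgNPs libraries had 0.80, 1.72 and 1.39 CPM, with a log2 fold change of 2.05 against CK that missed the threshold (adjusted p = 0.0671). The WRKY63 call in Ag+ against CK was lost with the replicate block (0.0630) and without CK 1 (0.109), CK 2 (0.120), Ag+ 1 (0.126), Ag+ 2 (0.0897), AgNPs 2 (0.0571) or AgNPs 3 (0.0624). No other regulator was called in any comparison by edgeR. Of all genes tested, edgeR called 5.57% in Ag+ against CK, 3.32% in AgNPs against CK and 0.684% in AgNPs against Ag+. In AgNPs against CK and AgNPs against Ag+ edgeR called no regulator. There 3 and 2 of the 11 had an unadjusted p under 0.05, against 17% and 14.8% of all genes tested. DESeq2 called 1 (WRKY63) and 0. The medians of the list were 0.10 in AgNPs against CK, 0.0001 in Ag+ against CK and 0.21 in AgNPs against Ag+.

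Of 28 nuclear genes for complexes I to IV, cytochrome c, ATP synthase and a copper chaperone of cytochrome oxidase, none was called by edgeR in any comparison. Those with an unadjusted p under 0.05 numbered 0 in AgNPs against CK, 1 in Ag+ against CK and 1 in AgNPs against Ag+. Of all genes tested, 17%, 19.2% and 14.8% had such a p in the same order. DESeq2 called 0, 1 and 0 of the 28, and without CK 3 or without AgNPs 1 edgeR called 1 in Ag+ against CK. Their log2 fold changes ran from -0.20 to 0.43 in AgNPs against CK, with a median of -0.04. Among 11 tested of 12 mitochondrial chaperones and proteases none was called by edgeR either, with 1, 0 and 1 genes at an unadjusted p under 0.05 in the same order, none called by DESeq2 in any comparison, and a median of -0.01 in AgNPs against CK.

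**Figure D4:**
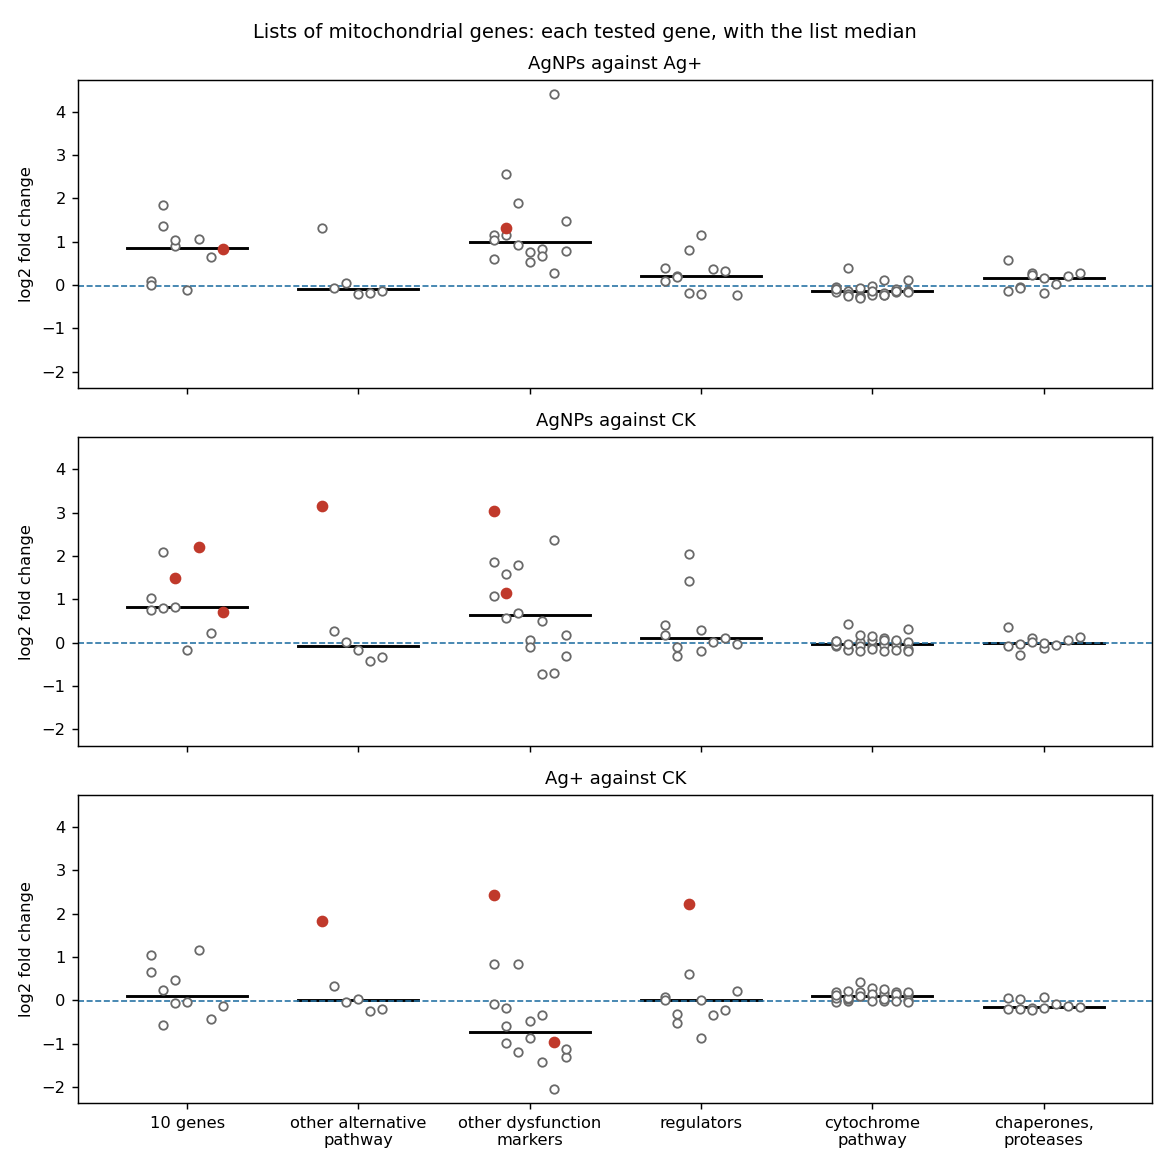
Log2 fold change of each tested gene in 6 lists of mitochondrial genes, with the list median as a bar and filled symbols for an adjusted p under 0.05, in AgNPs against Ag+, AgNPs against CK and Ag+ against CK from top to bottom. In AgNPs against CK the medians of the 10 genes (0.82) and of the other dysfunction markers (0.63) lie above 0, and the cytochrome pathway genes lie between -0.20 and 0.43.

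Set against the promoter letters, all 3 of the genes that edgeR called in AgNPs against CK were among the 5 with a match, and NDA1 and NAC017 held a match without being called by edgeR in any comparison. A link between the letters and the calls was not tested. Of the 5 genes without a match edgeR called none, whereas DESeq2 called NAC013 in AgNPs against CK and NDA2, NAC013 and OM66 in AgNPs against Ag+. Both dysfunction markers that edgeR called in AgNPs against CK also held one, shown in the same manner on the plus strand.
AT12CYS-2, chr5:2970503-2970531: gcaagaaaCGTGACGGGCAAGgggaatat
AT2G41730, chr2:17409353-17409381: attaatatCTTGCTGGACAAGcatttttg
Of the 16 dysfunction markers 8 held a match, the others being UGT74E2, CYP81D8, DTX3, SOT12, HSP23.5 and HSP23.6; edgeR called none of these, and DESeq2 called UGT74E2 and HSP23.6 in AgNPs against CK and in AgNPs against Ag+. Among the other alternative pathway genes AOX1B and NDB3 held one and NDB4 did not, among the cytochrome pathway genes CI51, among the chaperones and proteases MTHSC70-1 and PHB3, among the heat shock genes HSP17.4 and HSP17.6II, and among the regulators none.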

How the data were processed

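The authors deposited raw counts for each gene in 1 column per library, for 9 libraries, with no scaling applied. Per the labels' protocols, total RNA was depleted of ribosomal RNA and sequenced as paired reads in a single lane, and per the submitters' processing notes reads were aligned with HISAT2 to TAIR10; the sources used here name no counting tool, annotation or strand setting. Gene names, lengths and promoter letters came from the RefSeq assembly TAIR10.1, joined by locus, and promoter windows were cut from its genome.

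Counts were tested in R 4.3.3 with edgeR 4.0.16 (TMM factors, filterByExpr, robust quasi-likelihood test, two-sided, Benjamini-Hochberg adjustment over 19889 genes, called at an adjusted p under 0.05), with all 9 libraries in 1 fit and group as the only term. The standard error is the log2 fold change divided by the root of F. The biological coefficient of variation was 22.5%. The procedure was tested on simulated data. Alternatives were DESeq2 1.42.0, limma voom 3.58.1, other scaling factors and filters, and fits without each library; those with a heat shock term, without both CK 3 and AgNPs 1, and with a replicate block on the 6 libraries compared were chosen after seeing the data. Replicate libraries differed by more than counting noise.

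Deviations of same-numbered libraries correlated at 0.12, 0.19 and 0.23 in Ag+ against CK, where differently numbered libraries gave -0.18 to 0.05. Between AgNPs 1 and Ag+ 2, which differ in number, the correlation was 0.29, so the numbers need not mark pairs. The labels name no shared culture. A block by number was therefore used in alternative fits only, not in the main fit.

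All 10 genes are named; of the other lists, those called in a comparison (up to 8 a list), the other alternative oxidase and dehydrogenase genes, and those with the promoter motif. The genes and lists were chosen with earlier results of these data known.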

Additional observations from a re-analysis of the deposited data

How the results depend on the processing

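Of the 10 genes, 0 were called in Ag+ against CK, 3 in AgNPs against CK and 1 in AgNPs against Ag+, and upper-quartile and RLE factors, other low-count filters, limma voom and a non-robust dispersion gave the same counts. DESeq2 gave 1, 4 and 6, the 6 libraries compared alone 0, 2 and 4, a fit without CK 3 and AgNPs 1 gave 2, 4 and 5, and a heat shock term 0, 4 and 1. Leaving out 1 library gave 0 to 1, 1 to 4 and 0 to 2. A replicate block changed none of these 3 counts over the 9 libraries; on the 6 libraries compared it gave 0, 0 and 4, with adjusted p of 0.0734 for AOX1A, 0.10 for NDB2 and 0.0551 for UPOX in AgNPs against CK, where same-numbered libraries did not deviate together. Genes called in all numbered 1108, 660 and 136. They numbered 1901, 1447 and 870 with DESeq2, 2003, 1603 and 1276 without CK 3 and AgNPs 1, 1765, 1161 and 383 with the heat shock term, and 419 to 1372, 224 to 809 and 0 to 444 without 1 library. In AgNPs against CK they numbered 351 on the 6 libraries and 195 with the block there. In AgNPs against Ag+ they numbered 50 with limma voom, 408 on the 6 libraries, 236 with the block and 357 with the block on the 6 libraries. For the lists, given as Ag+ against CK, AgNPs against CK and AgNPs against Ag+: the other alternative pathway genes gave 1, 1 and 0 with edgeR over the 9 libraries, 2, 1 and 1 with DESeq2, 2 in AgNPs against CK without CK 3 and AgNPs 1, 0 in Ag+ against CK with limma voom, the 6 libraries or either block, and 0 in AgNPs against CK with the block on the 6 libraries. The dysfunction markers gave 2, 2 and 1 with edgeR over the 9 libraries, 4, 5 and 6 with DESeq2, 1, 1 and 4 on the 6 libraries, 5, 0 and 4 with the block there, 5, 7 and 5 without CK 3 and AgNPs 1, 4 in Ag+ against CK with the heat shock term and 0 in AgNPs against Ag+ with limma voom. The regulators gave 1, 0 and 0 with edgeR over the 9 libraries, 0 in Ag+ against CK with limma voom, the 6 libraries or the block, 1 in AgNPs against CK with DESeq2 or without CK 3 and AgNPs 1, and 1 in AgNPs against Ag+ with the block on the 6 libraries. The cytochrome genes gave 1, 2 and 1 in Ag+ against CK with DESeq2, without CK 3 and AgNPs 1 and with the heat shock term. The chaperones and proteases gave 1, 1 and 2 with the heat shock term and 1 in AgNPs against CK without CK 3 and AgNPs 1. Without 1 library the list counts ran, in the same order of comparisons, from 0 to 1, 1 to 1 and 0 to 0 for the alternative pathway, 0 to 4, 1 to 5 and 0 to 3 for the dysfunction markers, 0 to 1, 0 to 1 and 0 to 0 for the regulators, 0 to 1, 0 to 0 and 0 to 0 for the cytochrome genes, and 0 throughout for the chaperones. Fold changes near 0 changed sign: in Ag+ against CK, NAC013 (0.052 without CK 3 and AgNPs 1, 0.093 with the heat shock term, -0.20 to 0.028 without 1 library) and AOX1D (-0.47 to 0.80 without 1 library); in AgNPs against Ag+, AOX1C (0.011 with DESeq2, 0.012 with RLE factors, 0.031 on the 6 libraries, 0.21 without CK 3 and AgNPs 1, -0.61 to 0.23 without 1 library), NDA1 (-0.25 without CK 3 and AgNPs 1, -0.25 to 0.45 without 1 library), PUMP1 (-0.11 to 0.0080 without 1 library) and NDC1 (0.030 with the heat shock term). The cause of these differences was not tested. Depth limits AOX1C, AOX1D, AOX1B, AOX2 and NDB3, at 1 to 28 counts or fewer a library.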

Other observations

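Of 210 tested genes with the promoter letters in the window used above, 10 were higher in AgNPs against CK (4.76%, against 2.23% of all tested genes) and 5 were lower (2.38%, against 1.09%), with a median log2 fold change of 0.08. In Ag+ against CK 7 were higher (3.33%, against 3.52% of all) and 1 was lower (0.476%, against 2.05%), and in AgNPs against Ag+ 4 were higher (1.90%, against 0.508%) and 2 lower (0.952%, against 0.176%). The 10 that were higher in AgNPs against CK were AOX1A, NDB2, UPOX, AT12CYS-2 and AT2G41730, described above, and ABCB11 (an ABC transporter, log2 3.21), AT5G24640 (2.60), AT1G24580 (1.88), AT2G18193 (1.46) and AT3G23570 (1.07), named after their values were seen. The first 5 belong to lists chosen with earlier results of these data known. The share of 4.76% is therefore not independent of that choice, and no test was made of it. In the 1000 bases before the gene start, which 4.39% of promoters matched, 4 of the 10 genes held a match. This window ends at the gene start and does not contain the window used above. It leaves out the matches of AOX1A, AT12CYS-2 and AT2G41730, which cross the start or lie after it. Of the 767 tested genes with a match in those 1000 bases, 15 were higher in AgNPs against CK (1.96%, below the 2.23% of all tested genes) and 8 were lower (1.04%, against 1.09%). They gave 3.65% higher and 1.56% lower in Ag+ against CK, and 0.913% higher and 0.261% lower in AgNPs against Ag+.

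By the root mean square difference of centred log2 CPM over the 9 libraries, the genes most like AOX1A in pattern were FRO3, a ferric chelate reductase gene (0.13), ATSYTF (0.14), PERK13 (0.16), NIP3;1 (0.16) and AT5G45480 (0.17). FRO3 averaged 20.6 CPM under AgNPs, 12.5 CPM under Ag+ and 15.2 CPM in CK. Most like OM66 were AT2G32140 (0.25), AT1G13340 (0.26), the ubiquitin ligase gene PUB23 (0.28), AT4G28350 (0.30) and PUB39 (0.31), and PUB23 averaged 114 CPM under AgNPs, 41.8 CPM under Ag+ and 64.0 CPM in CK. Most like NDA1 were AT5G15180 (0.19), BZIP24 (0.21), PGL1 (0.23), AT2G30930 (0.25) and PUB9 (0.25). These are descriptions over 9 libraries that share groups, with no test.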
